A study of Homo sapiens with 8 samples.

Results

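The genes described here are 10 regulators of the G1 phase of the cell cycle: the D-type cyclin genes CCND1, CCND2 and CCND3, the kinase genes CDK4 and CDK6, the E-type cyclin genes CCNE1 and CCNE2, and the inhibitor genes CDKN1A, CDKN1B and CDKN2A. They were chosen by symbol from the 59050 genes in the count files, and all 10 are listed there. RNA was sequenced from 8 mouse xenografts of H2122, a human cell line established from a lung cancer. The parental group held 4 tumours labelled wild type, and the knockout group held 4 tumours of H2122 cells labelled SMARCA4 KO. All 8 hosts had received vehicle and no other agent. SMARCA4 encodes BRG1, a catalytic subunit by which SWI/SNF complexes move nucleosomes. The labels do not say whether the knockout cells are 1 clone, which strain the host mice were, or whether each tumour came from a mouse of its own. P-values set the difference between the groups against the spread among tumours within them. They therefore do not cover variation between knockout clones, and may not cover variation between mice.

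Cells pass from G1 into DNA synthesis when cyclin-dependent kinases phosphorylate the retinoblastoma protein and release E2F transcription factors. D-type cyclins pair with CDK4 or CDK6 and respond to growth signals, while E-type cyclins pair with CDK2 later in G1. The products of CDKN1A (p21) and CDKN1B (p27) hold back CDK2 complexes, and CDKN2A encodes p16, which binds CDK4 and CDK6, as well as the unrelated protein ARF.

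Reads assigned to genes numbered 19785922 to 23191698 in the parental and 20662882 to 21981123 in the knockout libraries. Levels are given as CPM, counts scaled to a common library size with TMM factors, which correct for differences in library composition. SMARCA4 itself lay at 198 to 235 CPM in parental and at 22.3 to 31.0 CPM in knockout tumours, without overlap, as the labels have it. The summed level of 6 epithelial carcinoma markers (EPCAM, KRT7, KRT8, KRT18, KRT19 and CDH1) was 5747 to 6918 CPM in parental and 4627 to 6227 CPM in knockout tumours. Markers of cell types that a host can supply differed among tumours. The 8 leukocyte markers summed to 7.26 to 65.8 CPM in parental and 12.2 to 29.1 CPM in knockout tumours, and the 7 skeletal muscle markers to 0.134 to 33.6 and 0.0974 to 15.1 CPM. Parental replicate 2 held the highest sum of both. The 7 fibroblast markers, mostly COL1A1, summed to 181 to 610 and 344 to 605 CPM, and the 6 endothelial markers to 7.34 to 18.0 and 8.67 to 15.2 CPM. Single markers differed within these sums by edgeR: LUM, a fibroblast proteoglycan gene, was at 0.103 to 0.637 CPM in parental and at 10.1 to 15.5 CPM in knockout tumours (adjusted p = 1.98e-06). VWF, an endothelial gene, was lower at 19.3% of its parental level, as were the keratin genes KRT19 at 49.6% and KRT7 at 61.2% (adjusted p = 0.000410, 8.48e-05 and 0.000333). Counting every marker tested, called or not, 3 epithelial markers leaned higher in knockout tumours and 3 lower. For fibroblast markers this was 4 higher and 1 lower, for endothelial markers 1 and 1, and for leukocyte markers 2 and 4. The called markers thus do not stand for their lists. The part of these markers in the results on the G1 genes was not tested. No defining marker of these 5 lists was at 0 in all libraries, but some were at 0 in many. CDH5, an endothelial gene too scarce to be tested, was at 0 in all 4 knockout tumours and at 0.0487 to 1.16 CPM in parental tumours. CKM, a muscle gene, had reads in parental replicate 1 alone (0.0517 CPM). In such bulk samples, fewer cells of a type and less RNA per cell cannot be told apart.

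CCNE1 was higher and CDK4 was lower in SMARCA4 knockout tumours, and the other 7 members tested did not pass the test. CCNE1 rose 1.71-fold and CDK4 fell to 72.8% of its parental level. Of the 10 members, 9 passed the filter on low counts, and CDKN2A did not. A gene is called changed where edgeR's quasi-likelihood test gives an adjusted p under 0.05 over all 16219 genes tested. By that rule 27.0% of all genes were called, 13.0% higher and 14.1% lower, so 2 of 9 members is a share close to the background and no result about the group. The groups did not overlap for 2 of the 9 members, again CCNE1 and CDK4, against 29.3% of all genes tested. The members' median log2 fold change (knockout against parental) was 0.11, against 0.0034 for all genes tested. Leaving out parental replicate 2 brought the count to 3, with CCND2 added.

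**Figure D1:**
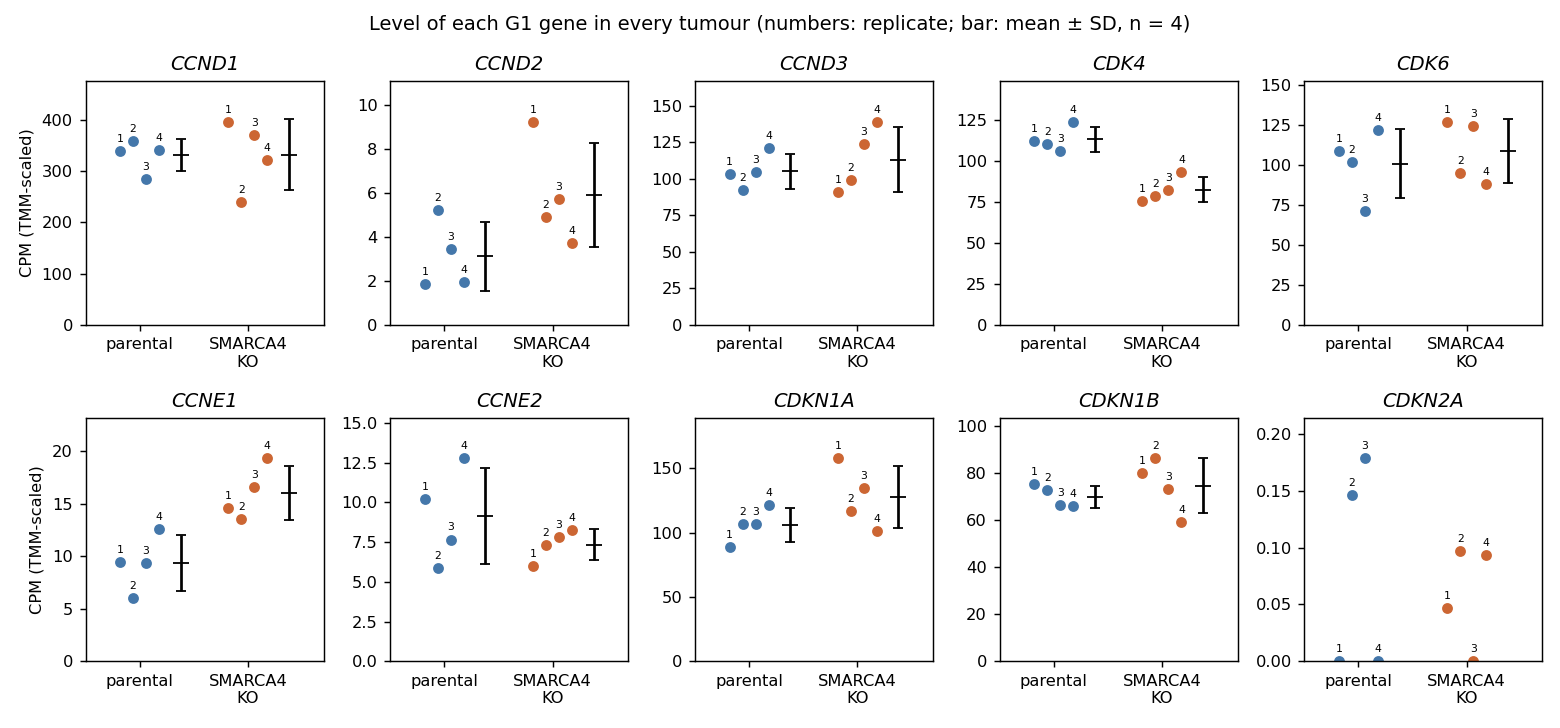
Level of each of the 10 genes in every tumour, in CPM on axes that start at 0. Points are tumours numbered by replicate, and bars show mean ± SD over 4 tumours (not drawn for CDKN2A, which had 0 to 4 counts per library). The parental and knockout points separate for CDK4 (106 to 124 against 75.9 to 93.2 CPM) and CCNE1 (6.0 to 12.6 against 13.5 to 19.3 CPM) and overlap for the other genes.

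Among the D-type cyclins, CCND1 was by far the most abundant in both groups and its mean level was nearly equal in them. CCND1 (ENSG00000110092, chromosome 11, 69641087 to 69654474, plus strand, all positions from GENCODE 29 on GRCh38) stood at 340, 358, 286 and 341 CPM in parental replicates 1 to 4. In knockout replicates 1 to 4 it was at 397, 239, 371 and 323 CPM. The knockout tumours held both the highest and the lowest value of all 8. Its log2 fold change was 0.0055 (95% interval -0.31 to 0.32, edgeR adjusted p = 0.984), so a change of more than 0.32 in either direction on the log2 scale lies outside the interval. The sign of so small a value turned under several other scalings and tests. Of its exon length, 10.3% overlaps LTO1 on the opposite strand. LTO1 was higher in knockout tumours (log2 fold change 0.52, edgeR adjusted p = 0.00901).

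CCND3 (ENSG00000112576, chromosome 6, 41934933 to 42050357, minus strand) was at 103, 92.0, 104 and 121 CPM in parental and at 91.0, 98.9, 124 and 139 CPM in knockout replicates 1 to 4. The knockout values enclosed all of the parental values. Its log2 fold change was 0.11 (95% interval -0.19 to 0.41, edgeR adjusted p = 0.610). CCND3, which is prominent in blood cells, was thus present in these carcinomas at a level second to CCND1 among the D-type cyclins.

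CCND2 (ENSG00000118971, chromosome 12, 4273772 to 4305350, plus strand) was scarce. It was at 1.86, 5.22, 3.43 and 1.95 CPM in parental replicates 1 to 4, from 36, 107, 77 and 46 counts. In knockout replicates 1 to 4 it was at 9.24, 4.92, 5.73 and 3.73 CPM, from 198, 101, 123 and 80 counts. Parental replicate 2 lay above 2 of the 4 knockout tumours, so the groups overlapped. At 0.92 (SE 0.357, edgeR adjusted p = 0.0787), its log2 fold change was larger than that of CCNE1 and did not pass the test. It passed by DESeq2 (adjusted p = 0.0398), with no filter on low counts (0.0239) and without parental replicate 2 (log2 fold change 1.28, 0.0143). Parental replicates 2 and 3, the highest parental tumours for CCND2, also had the highest leukocyte marker sums of all 8 (65.8 and 55.5 CPM, against 7.26 to 29.1 CPM in the other tumours). Among knockout tumours the orders differed. Replicate 1 had the highest CCND2 level (9.24 CPM) with a leukocyte sum of 19.1 CPM. Replicate 2 had the highest knockout sum (29.1 CPM) with CCND2 at 4.92 CPM, and replicate 4 was lowest for both. The part of host cells in the CCND2 level was not tested. Of the CCND2 exon length, 13.8% overlaps AC008012.1 on the same strand, so the CCND2 level may be too low.

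Divided by exon length, the D-type cyclins kept their order in every tumour. On the scale of CPM per kilobase of exon, CCND1 stood at 68.6 in parental and 68.8 in knockout tumours, CCND3 at 18.1 and 19.5, and CCND2 at 0.435 and 0.825. CCND1 supplied 78.6% ± 2.52 (SD, n = 4) of the summed D-type cyclin level in parental tumours and 76.8% ± 4.51 (SD, n = 4) in knockout tumours. The share of CCND3 ranged from 17.5% to 23.2% and from 15.8% to 26.3%. CCND2 stayed at or under 1.30% in every tumour, with the limit set by its overlap with AC008012.1. Against the parental levels of the genes tested on the same scale, CCND1 lay at the 96.8th percentile and CCND2 at the 13.4th.

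Of the kinase genes, CDK4 was lower in knockout tumours and CDK6 did not pass the test. A difference between the responses of the pair was not shown, since their ratio overlapped between the groups (adjusted exact permutation p = 0.143). CDK4 (ENSG00000135446, chromosome 12, 57747727 to 57756013, minus strand) was at 112, 111, 106 and 124 CPM in parental replicates 1 to 4. It was at 75.9, 78.5, 82.5 and 93.2 CPM in knockout replicates 1 to 4. Every knockout tumour lay below every parental tumour. This was a log2 fold change of -0.46 (SE 0.0899, 95% interval -0.66 to -0.26, edgeR adjusted p = 0.00298), and CDK4 was called lower in each of the 17 other analyses tried. A limit comes from the annotation: 43.2% of the CDK4 exon length overlaps TSPAN31 on the opposite strand, and the strand setting of the counting is not given in the sources used here. TSPAN31 itself was at 41.8 ± 7.25 and 38.5 ± 2.94 CPM (SD, n = 4 each; log2 fold change -0.12, edgeR adjusted p = 0.514).

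The RefSeq window around the CDK4 start, 250 bases before to 50 after it, is shown because CDK4 is the member that was lower. It lies at chr12:57752261-57752560 on the minus strand of GRCh38.p14, and capitals mark the letters CACGTG, an E-box of the type bound by MYC and MAX, and GGGCGG, a GC box, on either strand.
CDK4: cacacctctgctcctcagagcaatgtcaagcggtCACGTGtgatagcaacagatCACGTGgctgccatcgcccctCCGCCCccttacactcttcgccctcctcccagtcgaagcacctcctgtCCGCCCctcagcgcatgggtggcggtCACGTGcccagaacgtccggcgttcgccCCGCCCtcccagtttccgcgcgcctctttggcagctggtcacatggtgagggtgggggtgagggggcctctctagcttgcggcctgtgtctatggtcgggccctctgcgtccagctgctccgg
CACGTG occurred 3 times, starting 216, 196 and 101 bases before the start, and 7.26% of 35116 promoter windows of this length hold it at least once. GGGCGG also occurred 3 times, and 45% of windows hold it. This RefSeq start lies inside the longer GENCODE span of CDK4. A match of letters is a description and not a shown binding site.

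CDK6 (ENSG00000105810, chromosome 7, 92604921 to 92836594, minus strand), the other partner of D-type cyclins, was at 108, 101, 70.8 and 122 CPM in parental and at 127, 94.9, 124 and 88.2 CPM in knockout replicates 1 to 4. Its lowest value was parental replicate 3 and its highest knockout replicate 1, with the remaining 6 tumours mixed. The log2 fold change was 0.11 (95% interval -0.26 to 0.48, edgeR adjusted p = 0.676). Without parental replicate 3 it was -0.029. Per kilobase of exon, CDK4 stood at 35.8 CPM in parental and 26.0 in knockout tumours, and CDK6 at 8.21 and 8.86. CDK6 thus made up 18.5% ± 2.60 (SD, n = 4) of the summed level of both kinases in parental tumours and 25.4% ± 4.67 (SD, n = 4) in knockout tumours. The sum of both was 39.4 to 49.2 CPM per kilobase in parental and 32.5 to 36.6 in knockout tumours, with no overlap. The CDK4 level in these shares and sums carries the limit set by its overlap with TSPAN31, and may be too low or mixed.

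Of the E-type cyclins, CCNE1 was higher in knockout tumours and CCNE2 did not pass the test. CCNE1 (ENSG00000105173, chromosome 19, 29811898 to 29824308, plus strand) was at 9.51, 6.0, 9.36 and 12.6 CPM in parental replicates 1 to 4. It was at 14.6, 13.5, 16.6 and 19.3 CPM in knockout replicates 1 to 4. Every knockout tumour lay above every parental tumour, by a narrow gap between parental replicate 4 and knockout replicate 2. This was a log2 fold change of 0.77 (SE 0.200, 95% interval 0.33 to 1.21, edgeR adjusted p = 0.0143), and CCNE1 was called higher in each of the 17 other analyses. The largest adjusted p among them, 0.0429, came from leaving out 1 tumour. No other annotated exon overlaps CCNE1.

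The matching RefSeq window of CCNE1, the member that was higher, lies at chr19:29811741-29812040 on the plus strand of GRCh38.p14. Capitals again mark CACGTG and GGGCGG on either strand.
CCNE1: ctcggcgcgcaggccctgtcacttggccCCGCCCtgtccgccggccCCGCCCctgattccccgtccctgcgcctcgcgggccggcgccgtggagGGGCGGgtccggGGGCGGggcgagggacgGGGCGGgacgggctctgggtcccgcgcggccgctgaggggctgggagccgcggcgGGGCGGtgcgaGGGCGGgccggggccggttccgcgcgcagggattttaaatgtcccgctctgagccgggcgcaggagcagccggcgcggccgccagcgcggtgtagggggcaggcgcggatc
GGGCGG occurred 7 times in it, with no CACGTG. Of its bases 81% are G or C, against 66% in the CDK4 window, and it holds 47 CG steps against 23. Windows of members that were not called held these letters too. That of CDK6 had 1 CACGTG, 3 GGGCGG and 78% G or C. GGGCGG occurred 5 times for CCND3, 4 for CDKN1A and 1 for CDKN1B, while the CDKN2A window had none. That window (chr9:21995275-21995574, minus strand) lies at the upstream end of the gene. Starts further inside CDKN2A, which encodes both p16 and ARF, were not searched. A link between these letters and the changes was not tested. The E2F letters TTTCCCGC and TTTGGCGC, held by 1.63% and 0.652% of windows, were not found in the window of any of the 7 members matched in the RefSeq table. The same held for the AP-1 letters TGANTCA (7.71% of windows).

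CCNE2 (ENSG00000175305, chromosome 8, 94879770 to 94896678, minus strand) was at 10.2, 5.85, 7.67 and 12.8 CPM in parental and at 6.02, 7.30, 7.83 and 8.25 CPM in knockout replicates 1 to 4. The knockout values fell within the parental range. Its log2 fold change was -0.31 (95% interval -0.80 to 0.17, edgeR adjusted p = 0.327). The wide interval goes with a parental coefficient of variation of 33.1%, against 13.2% among knockout tumours. The parental tumours stood in the same order for both cyclins, with replicate 4 highest and replicate 2 lowest. INTS8, on the opposite strand, overlaps 37% of the CCNE2 exon length and was at 50.5 ± 6.64 and 51.1 ± 4.12 CPM (SD, n = 4 each; edgeR adjusted p = 0.933).

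Within each tumour, the ratio of paralogs does not depend on how libraries are scaled. The log2 ratio of CCNE2 to CCNE1 counts was 0.11, -0.035, -0.29 and 0.024 in parental replicates 1 to 4. In knockout replicates 1 to 4 it was -1.28, -0.89, -1.08 and -1.23. The parental tumours thus had about equal counts of both, and every knockout tumour had more counts of CCNE1. The means were -0.048 ± 0.169 and -1.12 ± 0.176 (SD, n = 4 each), a difference of -1.07 (exact two-sided permutation p = 0.0286, the smallest that 4 against 4 tumours can give). Adjusted by Benjamini-Hochberg over the 5 ratios compared, p was 0.143, and a single ratio cannot pass 0.05 in this family. The spread of this ratio was small although both cyclins varied among parental tumours. Per kilobase of exon, CCNE1 made up 64.0% ± 2.68 (SD, n = 4) of the E-type cyclin level in parental tumours and 78.9% ± 2.06 (SD, n = 4) in knockout tumours. These ratios and shares take the CCNE2 counts as they are and divide by its full exon length. Since 37% of that length overlaps INTS8 and the strand setting is not given, the CCNE2 level may be too low or mixed with that of INTS8.

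The ratios of the other pairs overlapped between the groups. CDK6 to CDK4 differed by 0.58 on the log2 scale (exact permutation p = 0.0857, adjusted 0.143), with knockout replicate 4 at -0.079 inside the parental range of -0.59 to -0.029. Without that tumour the difference was 0.73 (exact permutation p = 0.0286). CCND2 to CCND1 differed by 0.98 (exact permutation p = 0.0857, adjusted 0.143). CCND1 to CCND3 differed by -0.11 (0.657, adjusted 0.657) and CDKN1A to CDKN1B by 0.18 (0.400, adjusted 0.50), by the same exact permutation test.

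**Figure D2:**
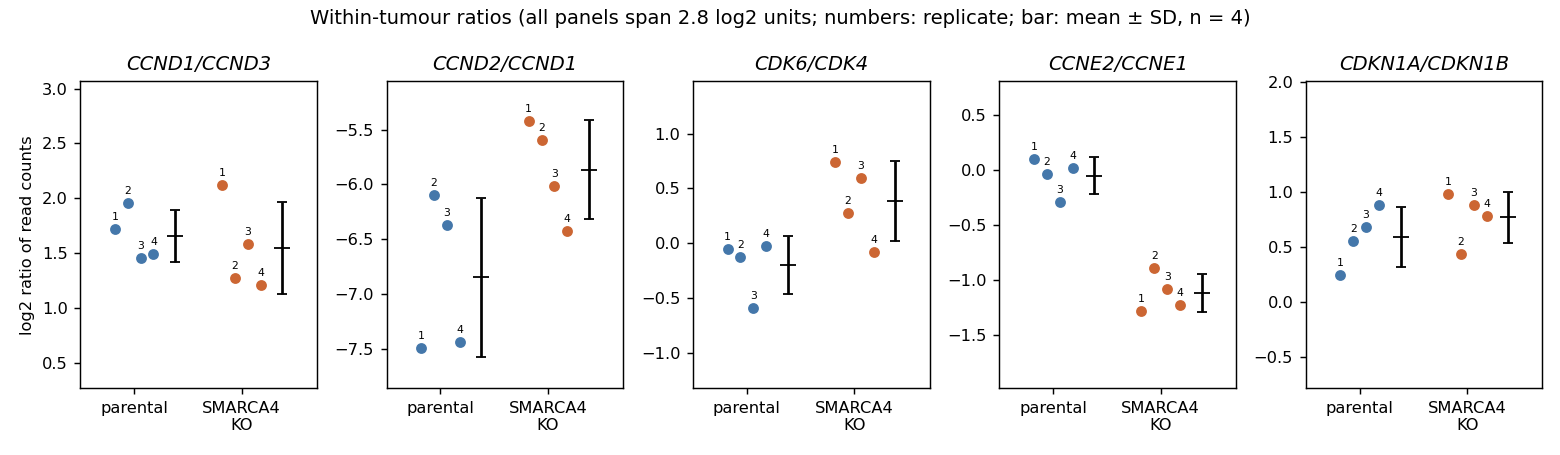
Log2 ratio of read counts between 5 pairs of genes within each tumour; every panel spans the same number of log2 units. Points are tumours numbered by replicate, and bars show mean ± SD over 4 tumours. For CCNE2 to CCNE1 the parental tumours lie at -0.29 to 0.11 and the knockout tumours at -1.28 to -0.89, while the other 4 pairs overlap.

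Of the inhibitors, CDKN1A and CDKN1B were abundant in both groups and neither was called. CDKN1A (ENSG00000124762, chromosome 6, 36676460 to 36687339, plus strand), the p21 gene, was at 89.1, 107, 107 and 122 CPM in parental replicates 1 to 4. It was at 158, 117, 135 and 102 CPM in knockout replicates 1 to 4. The top 2 values were knockout tumours and the lowest a parental tumour, with the remaining values mixed. The log2 fold change was 0.27 (95% interval -0.034 to 0.57, edgeR adjusted p = 0.179). CDKN1B (ENSG00000111276, chromosome 12, 12715058 to 12722371, plus strand), the p27 gene, was at 75.3, 72.8, 66.4 and 65.9 CPM in parental and at 80.1, 86.4, 73.1 and 59.3 CPM in knockout replicates 1 to 4. Knockout tumours held both its highest and its lowest value, and its log2 fold change was 0.092 (95% interval -0.16 to 0.34, edgeR adjusted p = 0.594). Per kilobase of exon, CDKN1A stood at 34.8 and 41.9 CPM and CDKN1B at 24.9 and 26.6 CPM in parental and knockout tumours.

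CDKN2A (ENSG00000147889, chromosome 9, 21967753 to 21995301, minus strand) was nearly without reads in both groups. It had 0, 3, 4 and 0 counts in parental and 1, 2, 0 and 2 counts in knockout replicates 1 to 4. A count of 0 allows up to 3 counts, or 0.127 to 0.155 CPM in these libraries. The knockout-to-parental ratio of pooled counts was 0.722 (exact 95% interval 0.181 to 2.64, counting error only), so neither a rise nor a fall was detectable at this depth. CDKN2B, the neighbouring p15 gene (22002903 to 22009363 on the same strand), had 2 counts in the parental group and 3 in the knockout group. MTAP, which lies on the other side (21802543 to 21937651, plus strand) and encodes a methionine salvage enzyme, was at 57.4 to 74.4 CPM in parental and 71.0 to 77.9 CPM in knockout tumours (log2 fold change 0.17, edgeR adjusted p = 0.203). Of 9 listed neighbours of CDKN2A, 6 were tested and 1 was called, against 27.0% of all genes tested. It was DMRTA1, which was higher (log2 fold change 0.66, edgeR adjusted p = 0.0177, and 0.0537 without knockout replicate 2). Without parental replicate 2, 2 of the 6 were called higher. The 6 had a median of 0.16 on the log2 scale.

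The further partners of these genes were compared by lists, whose counts are to be read against the 13.0% of all genes tested that were called higher and the 14.1% called lower, and whose medians against 0.0034. Of the 5 other CDK inhibitor genes, 4 were tested and 1 was lower, with a median log2 fold change of -0.34. A count of 1 in 4 is close to the 27.0% called over all genes. CDKN1C, the p57 gene, of the same family as p21 and p27, was at 28.2, 33.1, 19.7 and 26.6 CPM in parental and at 19.2, 9.88, 12.1 and 12.4 CPM in knockout replicates 1 to 4. All knockout tumours lay below all parental tumours, if barely for knockout replicate 1. Its level fell by 1.0 on the log2 scale (SE 0.207, edgeR adjusted p = 0.00405). CDKN2C (-0.36, adjusted p = 0.127), which encodes p18, and CDKN2D (-0.31, 0.219), which encodes p19, were not called by edgeR. A second call in this list appeared without parental replicate 2 or without knockout replicate 4.

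Of 7 genes for CDK2 and the activation of CDKs, 1 was higher and none lower by edgeR (0 with an unadjusted p under 0.05 in the lower direction, and 0 lower by DESeq2 or limma-voom). The higher gene was CDK2, the partner of E-type cyclins. CDK2 was at 30.5, 26.9, 26.8 and 30.7 CPM in parental and at 34.8, 36.6, 37.1 and 40.04 CPM in knockout replicates 1 to 4, without overlap. It rose by 0.37 on the log2 scale (SE 0.0893, edgeR adjusted p = 0.00995), a smaller rise than that of CCNE1. The list's median was -0.13.

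Of 13 RB and E2F genes, none was called higher and 1 lower (median log2 fold change -0.060). TFDP2, a dimer partner of E2F proteins, fell from 37.5 ± 3.27 to 24.8 ± 1.77 CPM (SD, n = 4 each; log2 fold change -0.60, SE 0.0960, edgeR adjusted p = 0.000852). RB1 was at 51.5 to 71.8 CPM in parental and 41.2 to 55.1 CPM in knockout tumours (log2 fold change -0.29, edgeR adjusted p = 0.113, and 0.0444 without parental replicate 3). E2F1 was at 22.5 to 30.1 and 23.2 to 43.3 CPM (log2 fold change 0.32, edgeR adjusted p = 0.204). A second lower call in this list also appeared without parental replicate 2. No E2F or pocket protein gene was called higher by edgeR, DESeq2 or limma-voom, and 0 had an unadjusted p under 0.05 in that direction.

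Of 17 genes for the turnover of G1 proteins, 1 was higher and none lower by edgeR (2 lower at an unadjusted p under 0.05, 1 lower by DESeq2 and 0 by limma-voom; median log2 fold change -0.067). FBXO4, an F-box protein reported to act on cyclin D1, rose from 22.2 ± 1.73 to 28.8 ± 2.85 CPM (SD, n = 4 each; log2 fold change 0.37, edgeR adjusted p = 0.0192). It was not called without parental replicate 1 (adjusted p = 0.0651) or without knockout replicate 2 (0.0578). SKP2 and FBXW7, the F-box proteins for p27 and cyclin E, had log2 fold changes of -0.070 and 0.12 (edgeR adjusted p = 0.799 and 0.476).

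Of 18 E2F target genes at the G1/S transition, none was higher and 1 was lower by edgeR, with a median log2 fold change of -0.16 (1 higher and 2 lower at an unadjusted p under 0.05; 1 higher and 2 lower by DESeq2; 1 higher and 0 lower by limma-voom). Over all genes tested, 13.0% were called higher and 14.1% lower. The lower gene was CDT1, a replication licensing factor (log2 fold change -0.40, adjusted p = 0.0429). This call rested on single tumours: the count of lower genes was 0 without any 1 of parental replicates 1, 3 and 4 and knockout replicates 1, 2 and 3 (CDT1 adjusted p 0.0688 to 0.117). It came to 3 when parental replicate 2 was left out and to 2 when knockout replicate 4 was. Upper-quartile scaling also gave 0, while the replicate block and no filter on low counts each gave 2. Of 12 genes of G2, mitosis and proliferation, none was called in either direction by edgeR, DESeq2 or limma-voom (0 higher and 1 lower at an unadjusted p under 0.05; median -0.11). MKI67, the gene of the proliferation marker Ki-67, was at 169 to 298 CPM in parental and 231 to 281 CPM in knockout tumours (log2 fold change 0.086, edgeR adjusted p = 0.719). Without parental replicate 2, 2 of these 12 genes were called lower, and 1 was when parental replicate 3 was left out. With no filter on low counts, 1 was called lower as well.

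Among 22 genes of the responses to DNA damage and stress and of growth arrest, 4 rose and 4 fell, with a median log2 fold change of 0.061. Over all genes tested, 13.0% were called higher and 14.1% lower, and nothing particular to this list is read from its counts. GADD45A, a DNA damage-inducible growth arrest gene, fell from 23.2 ± 1.68 to 9.73 ± 1.73 CPM (SD, n = 4 each; log2 fold change -1.25, edgeR adjusted p = 4.33e-05). BTG2, an antiproliferative gene, fell from 20.0 ± 2.11 to 9.93 ± 1.47 CPM (log2 fold change -1.01, edgeR adjusted p = 0.000202). GDF15, a secreted stress cytokine, fell from 49.8 ± 17.4 to 15.7 ± 2.21 CPM (log2 fold change -1.66, edgeR adjusted p = 0.000300). The other gene that fell was CCNG1, which encodes cyclin G1 (-0.39, edgeR adjusted p = 0.0480), a call lost by limma-voom (0.0584), with upper-quartile scaling (0.0592), with a replicate block (0.102) and without any 1 of parental replicates 1 and 4 and knockout replicates 1, 3 and 4 (0.106 to 0.133). The 4 that rose were MDM2 (log2 fold change 0.70, edgeR adjusted p = 0.00140), which encodes a ubiquitin ligase, its relative MDM4 (0.44, 0.00660), PLK2 (0.50, 0.00645) and RPS27L (0.41, 0.0120). CCNG1 and the 4 that rose were named after their values were seen. CDKN1A, a member and not part of this list, was not called (log2 fold change 0.27).

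**Figure D3:**
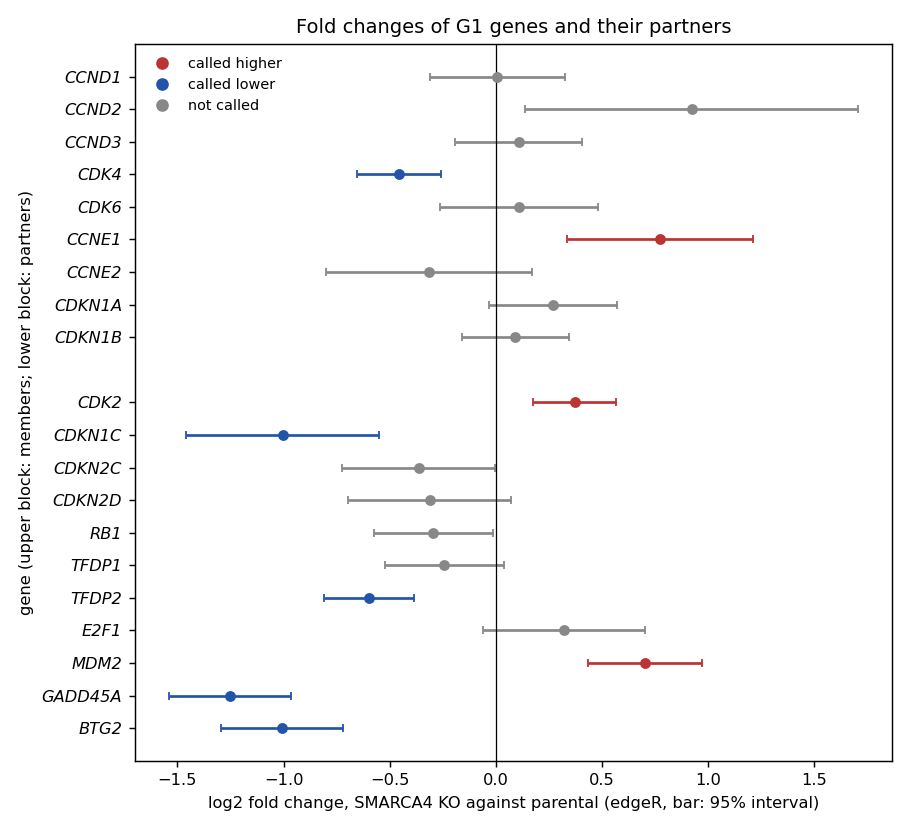
Log2 fold changes of the 9 members tested (upper block) and of 11 partner genes (lower block), with 95% intervals that are not adjusted for the number of genes. Colours give the call over all genes tested: among the members CCNE1 (0.77) is higher and CDK4 (-0.46) lower, and the interval of CCND2 (0.14 to 1.71) leaves out 0 without a call.

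**Figure D4:**
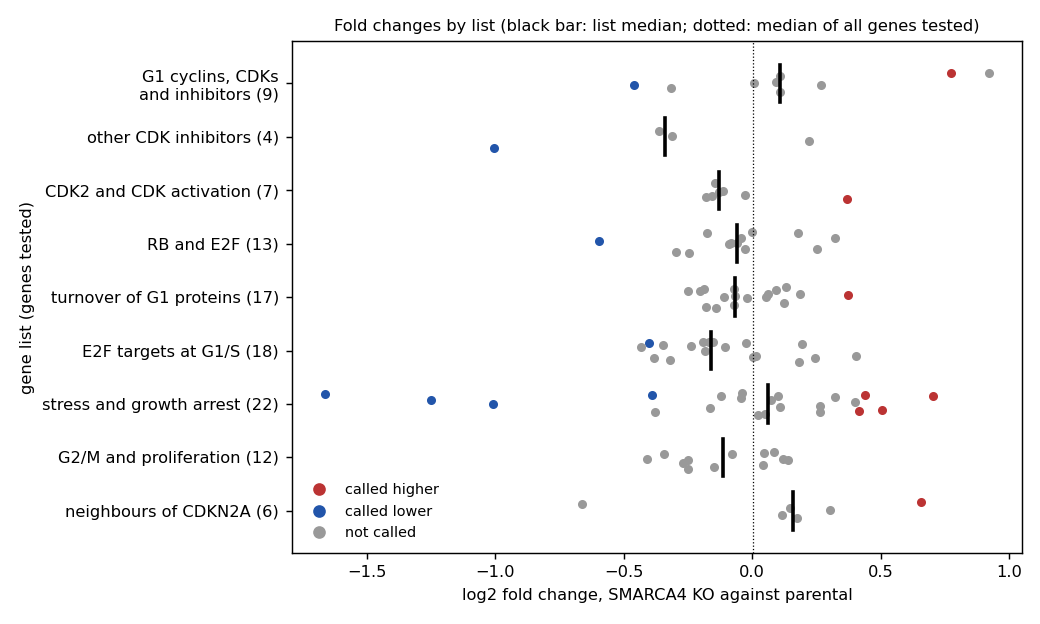
Log2 fold changes of the genes tested in each of 9 lists, with the number tested in brackets, the list median as a black bar and the median of all genes as a dotted line. The list of stress and growth arrest genes spreads from -1.66 to 0.70 with 4 genes called in each direction. None of the 12 G2, mitosis and proliferation genes is called in this fit. Without parental replicate 2, 2 of them were called lower, and 1 was without parental replicate 3 or with no filter on low counts. Over all genes tested, 13.0% were called higher and 14.1% lower.

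Genes whose levels followed the changed members most closely were found by the root mean square difference of log2(CPM + 0.5) over the 8 tumours, after each gene's own mean was taken off. For CCNE1 they were KCTD15 (0.116), ACAT2 (0.134) and TNFSF9 (0.145). For CDK4 they were FAU (0.0446), PARP2 (0.0555) and H2AFY (0.0556). These differences are on the log2 scale. The measure keeps the difference between the groups, so it does not show that genes followed each other within a group. TNFSF9 was itself not called (edgeR adjusted p = 0.0553), while the others were.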

How the data were processed

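The authors deposited 1 file of raw counts for each tumour, with a row per gene symbol, made with TopHat2 2.1.1 and HTSeq 0.11.0 on build hg38, per the submitters' processing notes. The annotation, the strand setting and any removal of mouse reads are not given in the sources used here, so host reads that resemble human genes may be counted. Summary lines that name no gene held 14.8% to 20.9% of reads and were left out. No 2 libraries agreed within sampling noise (chi-square per degree of freedom at least 8.21).

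Counts were fitted with edgeR 4.0.16 in R 4.3.3: filterByExpr (minimum count 10, minimum total 15), TMM scaling and the quasi-likelihood F-test, knockout against parental with no covariate, with Benjamini-Hochberg adjustment over 16219 genes. The standard error is the log2 fold change divided by the square root of F. The script was tested on simulated data with the same dispersion for every gene and few changed genes. That checks the code and lends no weight to the results here. Ratios used counts plus 0.5 and an exact two-sided permutation test. Exon lengths are unions of GENCODE 29 exons on GRCh38. Alternatives were DESeq2 1.42.0, limma-voom (limma 3.58.1), 3 scalings, 2 filters, library sizes without the 10 most abundant genes, the replicate number as a block, and leaving out each tumour. The members and the gene lists were chosen with earlier results of these data known. Genes were named by a rule: the members, SMARCA4, RB1, E2F1, CDK2, MTAP, the 3 called genes with the smallest p in each list, and the 3 genes most like the largest rise and fall. Other names were added after values were seen. A few listed genes are not reported here and were left out of the list counts.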

Additional observations from a re-analysis of the deposited data

How the results depend on the processing

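CDK4 and CCNE1 kept their direction and their call in all 17 alternatives. Their log2 fold changes ran from -0.48 to -0.42 and from 0.75 to 0.81 in the 9 fits on all tumours, and from -0.52 to -0.42 and from 0.61 to 0.94 when 1 tumour was left out. The number of genes called ran from 3871 to 4902 and from 3501 to 4721, and the number of members called was 2 or 3. The number called higher was 2 in place of 1 by DESeq2, with no filter on low counts and without parental replicate 2, and CCND2 was the added gene (range 1 to 2 with 1 tumour left out). CCND2 had log2 fold changes of 0.91 (DESeq2, adjusted p = 0.0398) and 0.91 (no filter, 0.0239), and 0.62 to 1.28 with 1 tumour left out (adjusted p 0.0143 to 0.244). The sign of the CCND1 value turned: it was -0.0020 by DESeq2, -0.015 by limma-voom, -0.0019 with RLE scaling, -0.014 with total counts, -0.016 with no filter, -0.0042 without the 10 most abundant genes, and -0.089 to 0.14 with 1 tumour left out. With 1 tumour left out, CCND3 ran from -0.0053 to 0.20, CDK6 from -0.029 to 0.21, the CDKN2A difference from -0.049 to 0.011 CPM, the log2 ratio of CCND1 to CCND3 from -0.30 to 0.0035 and that of CDK6 to CDK4 from 0.45 to 0.73. INTS8 turned to -0.0042 with total counts and -0.0075 with no filter, and to -0.067 without parental replicate 2, -0.026 without knockout replicate 1 and -0.0049 without knockout replicate 2, within a range of -0.067 to 0.079. The causes were not tested.

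With the replicate number as a block, 3871 genes and the same 2 members were called, and CCND1 was at -0.014. The block ended the call of CCNG1 (adjusted p = 0.102). No shared deviation was seen in same-numbered tumours (correlations of -0.044, -0.013, -0.22 and 0.092). These values cannot tell whether equal numbers share an animal or a day, which the labels do not state. The title of parental replicate 4 also carries a different number, and its replicate number was used here. Depth limits what can be said of CDKN2A and CDKN2B, which had at most 4 counts per library.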
